A study of Rattus norvegicus with 24 samples.

Results

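The effect of the kinase ligand PAIR1 was measured in rat INS1 cells in which IRE1α had been switched on for 24 h. The comparison took the 3 libraries labelled PAIR1 at 24 h and the 3 labelled vehicle at 24 h, which are 6 of the 24 libraries of the study, by treatment and time in the sample titles. INS1 is an insulin-secreting line derived from a rat insulinoma. All cells of the study carried a doxycycline-inducible mouse IRE1α (Ern1) transgene. The PAIR1 cells and the vehicle cells both received doxycycline, so that induction of the transgene is shared and the compound is what differs. Values of 4 further groups of 3 libraries were set beside them: uninduced cells at 24 h, which received vehicle and no doxycycline, induced cells given KIRA9 at 24 h, and induced cells given PAIR1 or vehicle at 4 h. Uninduced cells at 4 h served to choose early responders and to give their level without induction. Doses and the number of clones behind the line are not in the labels, and no uninduced cells received a compound, so effects of PAIR1 outside the induced kinase cannot be told apart from effects through it.

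IRE1α is a sensor of protein folding in the endoplasmic reticulum (ER) with a kinase and an RNase domain in one protein. When it clusters, the RNase excises an intron from the Xbp1 mRNA, which yields a transcription factor that raises ER chaperones and translocation factors, and at strong activation it also cleaves many other mRNAs at the ER, a process named regulated IRE1-dependent decay. Beta cells make large amounts of insulin in the ER and are known to be sensitive to this pathway. KIRA compounds occupy the ATP pocket of the kinase and lower the RNase activity, while the study's title describes PAIRs as partial antagonists that bind the same pocket and separate the outputs of the RNase. The comparison addresses how much of the RNA profile of induced cells changes when such a partial antagonist is present for a day.

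The counts are given per Ensembl gene ID. Neither the count table nor the gene table used for names pairs these IDs with symbols (0 of 26689 IDs matched), so ER chaperone, insulin, decay-substrate and cell type marker genes could not be read by name. The level of Ern1 could not be used to check the labels, the beta-cell identity of the line was not checked against its markers, and no sequence could be joined to an ID. Individual values are therefore given for 4 IDs, 2 in each direction. Totals ran from 12.6 to 18.0 M counts in the PAIR1 libraries and from 13.9 to 19.7 M in the vehicle libraries. In the 6 induced vehicle libraries of both times the time characteristic contradicts the title, and the title was followed. With the times of that characteristic, 4646 IDs were called for PAIR1 against vehicle in place of 7556. Of the 4 IDs below only ENSRNOG00000001806 was then called, with the opposite sign. ENSRNOG00000019660 and ENSRNOG00000042988 changed sign without a call, and ENSRNOG00000015818 kept its sign without a call. A set of 6 libraries (PAIR1 at 24 h replicate 1, vehicle at 24 h replicates 1 and 2, vehicle at 4 h replicate 3, and replicate 2 of uninduced cells at each time) stood apart: 41 IDs were higher in each of them than in any of the other 18 and took 0.667 to 0.744% of their counts against 0.0705 to 0.0853%. None of these 41 IDs was called in PAIR1 against vehicle or in PAIR1 against KIRA9 at 24 h. By their choice they differ between replicates of PAIR1 and of vehicle, which hinders a call, so this says nothing about other IDs. Results without the 6 libraries stand beside the counts they touch, with 1 vehicle library left at 24 h, which is then assumed to vary like the other groups.

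PAIR1 and vehicle libraries differed in 54.9% of the tested IDs, and 2-fold rises were more frequent than 2-fold falls. Of 13760 IDs tested, PAIR1 was above vehicle in 4132 (30.0%) and below it in 3424 (24.9%) at an adjusted p below 0.05 in edgeR's quasi-likelihood test. The rises were larger: 690 IDs, or 16.7% of those called higher, were at least 2-fold higher, and 220, or 6.43% of those called lower, were at least 2-fold lower. On the log2 scale the called rises had a median of 0.55 and the called falls one of -0.33. At a 4-fold difference the sides came out close, with 36 IDs higher and 34 lower. Over all tested IDs, called or not, the 10th, 25th, 75th and 90th percentiles of the log2 change were -0.47, -0.24, 0.36 and 0.78.

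The 3 libraries of one group lay wholly above or below those of the other in most called IDs. Groups did not overlap in 4466 IDs with PAIR1 higher (32.5% of those tested) and in 4000 with PAIR1 lower (29.1%), and these held 96.5% of the IDs called higher and 96.2% of those called lower. Without the 6 libraries that stand apart 3227 IDs were higher and 2313 lower. The split between directions depended on the scaling. With TMM, which scales libraries by a trimmed mean of their ratios, 54.7% of the calls were higher, and with upper-quartile scaling 43.7% of 8102 calls were, with the median of all IDs at -0.088 in place of -0.003. Directions are therefore relative to the other IDs.

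**Figure D1:**
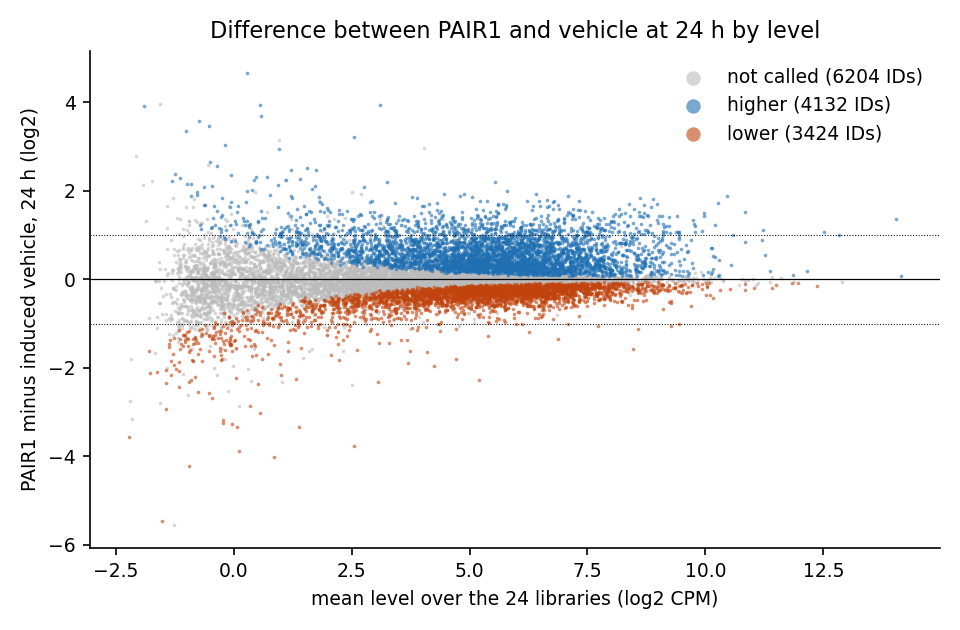
Each point is 1 of 13760 IDs, with its mean level over the 24 libraries (log2 CPM, where CPM is the count scaled to the total of its library) on the horizontal axis and the log2 difference between PAIR1 and vehicle at 24 h on the vertical axis; dotted lines mark a 2-fold difference. The 4132 IDs called higher (blue) reach beyond the upper dotted line at all levels, while points beyond the lower dotted line lie mainly at low levels.

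Calls were most frequent among abundant IDs. These hold more reads to test, and whether reads alone account for the higher share was not tested. With the tested IDs in 5 classes of 2752 by mean level, in the highest class (83.9 CPM and above), 44.9% were called higher and 32.1% lower, 7.67% were at least 2-fold higher and 0.254% at least 2-fold lower. In the middle class (16.0 to 38.2 CPM) these 2-fold shares were 4.14% and 0.363%. In the lowest class (0.215 to 4.01 CPM), where few reads limit the test, 9.85% were called higher and 11.5% lower, and the 2-fold shares, called or not, were 7.01% and 8.50%. Falls of 2-fold were thus rare above the lowest class, whereas such rises made up at least 3.96% of every class.

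The same shift can be read as a share of each library's counts. The 4132 IDs called higher took 32.6, 32.6 and 32.7% of counts in the vehicle libraries and 44.1, 44.4 and 44.2% in the PAIR1 libraries. They took 45.9 to 47.1% in uninduced and 47.6 to 47.9% in KIRA9 libraries at 24 h. The 3424 IDs called lower took 37.8, 37.8 and 38.1% with vehicle and 28.6, 28.9 and 29% with PAIR1, beside 26.9 to 27.4% in uninduced and 26.6 to 26.8% in KIRA9 libraries. These shares describe IDs picked for their difference and carry no test. In all, 11.8 percentage points of the counts moved between IDs. The gain was spread over many of them: the 10 IDs that gained most held 17.5% of it, and 201 IDs were needed to reach 50%. The loss was more diffuse, with 6.02% in the 10 IDs that lost most and 547 IDs needed for 50%. In bulk RNA such a share does not tell more RNA per cell from more cells that hold it.

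The 10 highest IDs took the smallest share of counts with vehicle among the groups at 24 h. The 10 highest IDs of a library took 6.61, 6.80 and 6.78% of its counts with vehicle and 7.50, 7.60 and 7.78% with PAIR1. The groups did not overlap, and the difference of 0.90 percentage points had the smallest p that 3 against 3 libraries allow in an exact two-sided permutation test (p = 0.1, adjusted p = 0.15 over 3 comparisons). The 1 ID that gained most from vehicle to PAIR1 gained 0.92 points. A difference of this size could thus rest on 1 ID and need not hold for abundant IDs as a class. Uninduced libraries lay higher, at 8.42 to 8.70%, which was -0.92 points for PAIR1 minus uninduced (exact permutation p = 0.1, adjusted p = 0.15). KIRA9 libraries, at 7.75 to 7.88%, overlapped with PAIR1 (exact permutation p = 0.2, adjusted p = 0.2). The number of IDs with at least 1 CPM was 12808 to 12833 with vehicle, 12617 to 12675 with PAIR1, 12612 to 12658 in uninduced and 12593 to 12620 in KIRA9 libraries. No ID went from 0 counts in all 3 libraries of one group to at least 10 counts in each library of the other, in either direction.

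The 4 IDs printed were picked by the size of their change and do not stand for the other IDs. ENSRNOG00000001806 is an ID of middle abundance, with a mean level above 65.2% of the tested IDs. It stood at 64.1, 53.1 and 57.5 CPM in uninduced libraries at 24 h and at 9.44, 8.67 and 9.71 CPM in induced vehicle libraries. With PAIR1 it was at 43.3, 40.7 and 44.5 CPM, and with KIRA9 at 72.2, 65.0 and 68.1 CPM. The 4 groups at 24 h did not overlap: vehicle was lowest, then PAIR1, then uninduced, then KIRA9. PAIR1 raised it 4.61-fold over vehicle (log2 change 2.20 ± 0.07 SE, adjusted p = 1.8e-17) and left it 1.36-fold below uninduced cells (log2 change -0.45 ± 0.06, adjusted p = 4.4e-06) and 1.60-fold below KIRA9 (log2 change -0.68 ± 0.06, adjusted p = 1.4e-08). At 4 h it was at 60.3, 59.5 and 59.4 CPM with vehicle and at 65.9, 60.5 and 62.2 CPM with PAIR1, a log2 difference of 0.07 with a 95% interval of -0.05 to 0.20 (adjusted p = 0.69).

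ENSRNOG00000015818 had the largest rise under the rule for naming, at a low level. It was at 0.701, 0.600 and 1.93 CPM with vehicle and at 6.58, 5.72 and 5.59 CPM with PAIR1, so that the groups were apart but vehicle replicate 3 lay well above the other vehicle libraries. The log2 change was 2.48 ± 0.49 (adjusted p = 0.00017), and without vehicle replicate 3 alone it was 3.17 (adjusted p = 7.4e-05). Without the 6 libraries that stand apart, vehicle replicate 3 alone remained and the log2 change was 1.54 with an adjusted p of 0.11. Uninduced libraries held 2.37, 1.89 and 2.44 CPM, and PAIR1 lay above them by a log2 change of 1.41 ± 0.45 (adjusted p = 0.022). KIRA9 libraries were widely spread at 10.6, 3.86 and 11.0 CPM, and the log2 difference of PAIR1 from KIRA9 was -0.51 with a 95% interval of -1.39 to 0.36 (adjusted p = 0.46). The libraries at 4 h also varied, from 1.62 to 5.39 CPM with vehicle and from 2.84 to 7.77 CPM with PAIR1.

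Both IDs that fell most were higher in vehicle than in uninduced libraries at 24 h and were near the uninduced level with PAIR1. They were picked for a high level in these same vehicle libraries relative to PAIR1, which favours such a pattern, so it is a description only. ENSRNOG00000042988 was at 35.4, 32.8 and 33.2 CPM with vehicle and at 6.50, 6.64 and 7.14 CPM with PAIR1, a 4.98-fold fall (log2 change -2.32 ± 0.24, adjusted p = 2.5e-08). Uninduced libraries held 6.94, 5.59 and 5.76 CPM and overlapped with PAIR1, and KIRA9 libraries held 5.11, 5.02 and 7.21 CPM. The test called no difference between PAIR1 and uninduced cells (log2 difference 0.15, 95% interval -0.37 to 0.66, adjusted p = 0.72) or between PAIR1 and KIRA9 (0.22, -0.31 to 0.74, adjusted p = 0.63).

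ENSRNOG00000019660 had the deepest fall under the rule, from 11.1, 10.5 and 11.3 CPM with vehicle to 1.82, 1.45 and 1.27 CPM with PAIR1 (7.27-fold, log2 change -2.86 ± 0.38, adjusted p = 1.2e-06). The PAIR1 libraries lay within the range of the uninduced ones, at 0.888, 1.95 and 2.21 CPM. KIRA9 libraries were lower still, at 0.552, 0.451 and 0.551 CPM, and the groups did not overlap. PAIR1 was 2.86-fold above KIRA9 (log2 change 1.52 ± 0.47, adjusted p = 0.027), on 22 to 23 counts per PAIR1 library and 7 to 11 per KIRA9 library. Against vehicle, each compound has its own value for these 4 IDs, from the same vehicle libraries. The log2 changes with KIRA9 were 2.88 for ENSRNOG00000001806, 2.99 for ENSRNOG00000015818, -4.38 for ENSRNOG00000019660 and -2.54 for ENSRNOG00000042988, in a contrast that called 32.3% of IDs higher and 30.6% lower. Induction at 24 h gave -2.65, -1.07, 2.72 and 2.46 in the same order. All but that of ENSRNOG00000015818 (adjusted p = 0.075) were called, beside 29.8% of IDs called higher and 32.0% called lower by induction at 24 h. The vehicle libraries that chose the 4 IDs also enter this contrast, which favours a large value in it, so these values are a description only.

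**Figure D2:**
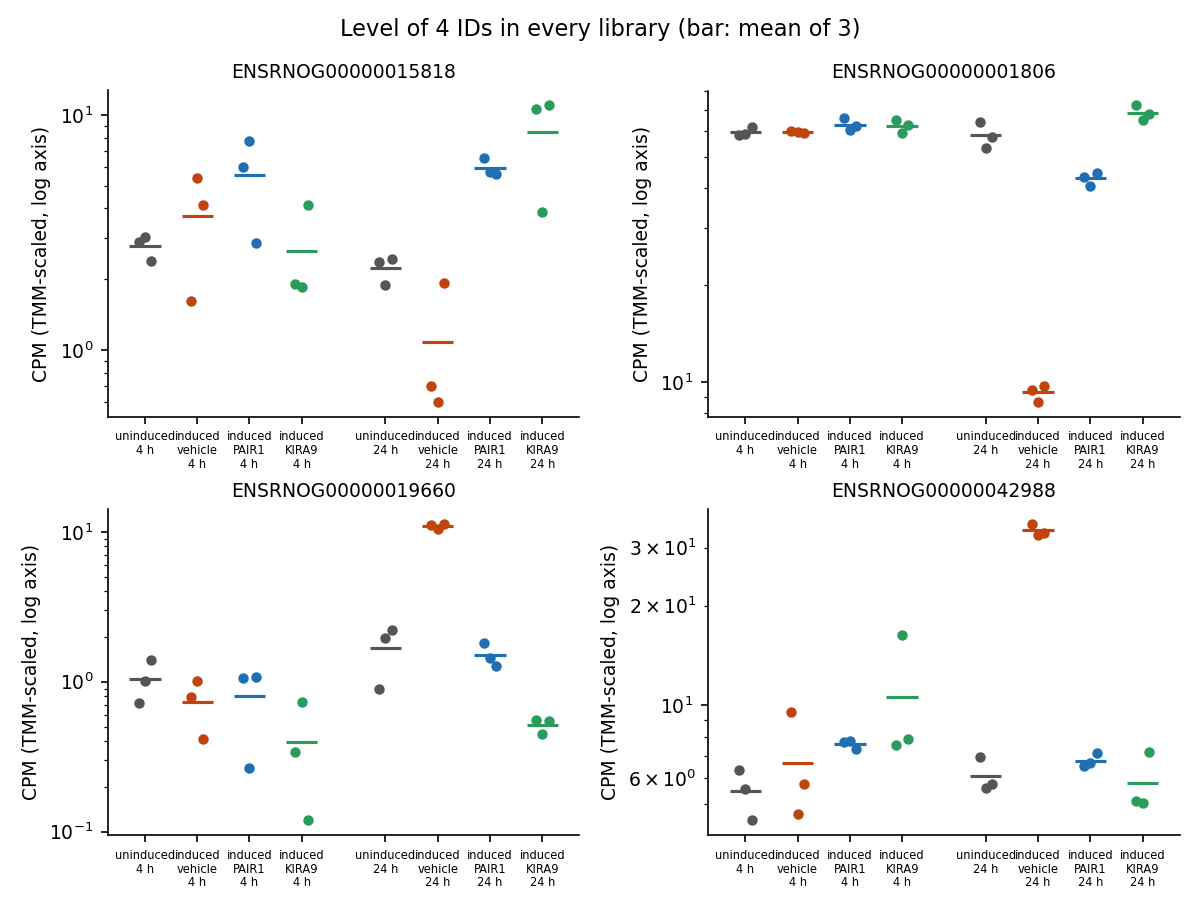
Level of the 4 printed IDs in every library (TMM-scaled CPM, log axis), by group at 4 h and 24 h; points are libraries and bars the mean of 3. For the IDs that rose PAIR1 at 24 h lies above induced vehicle, for those that fell it is lower, and at 4 h the vehicle and PAIR1 levels are close or overlap.

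Relative to uninduced cells, the PAIR1 profile was nearer than that of induced vehicle cells but not the same. The distance between libraries was measured as the root mean square difference of log2 CPM over all 13760 IDs, with no choice of IDs. PAIR1 libraries lay 0.484 to 0.554 from uninduced and 0.603 to 0.673 from vehicle libraries, and these ranges did not overlap. Vehicle libraries lay 0.75 to 0.787 from uninduced ones. Replicates of PAIR1 lay 0.393 to 0.470 apart, within 1 group. The distance from PAIR1 to KIRA9 libraries was 0.410 to 0.511. It overlapped with that among PAIR1 replicates only through pairs with PAIR1 replicate 1, one of the 6 libraries that stand apart: replicates 2 and 3 lay 0.393 from each other and 0.410 to 0.457 from KIRA9. Replicates of KIRA9 lay 0.381 to 0.394 apart, below all their distances to PAIR1.

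**Figure D3:**
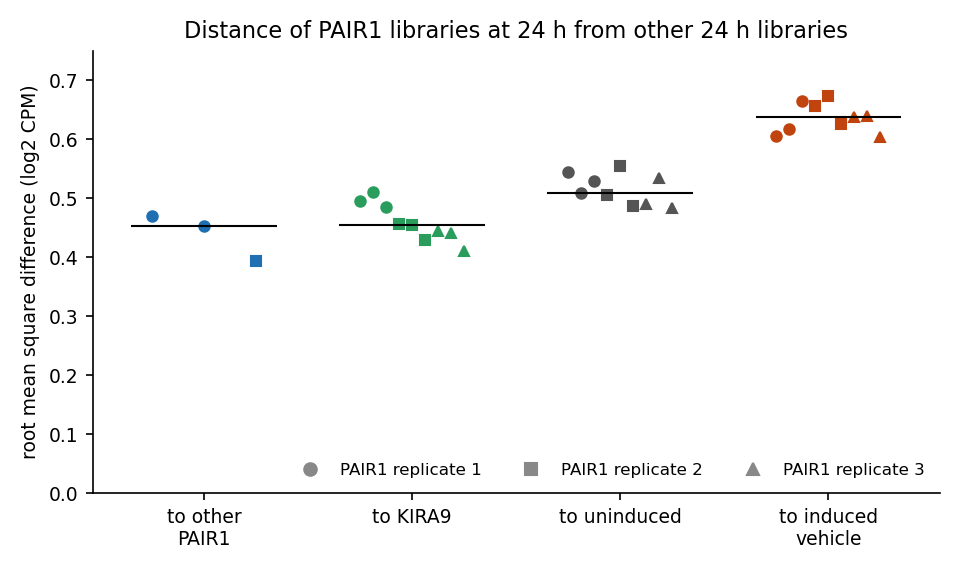
Distance of each PAIR1 library at 24 h to other 24 h libraries (root mean square difference in log2 CPM over 13760 IDs); each point is a pair of libraries, shapes mark the PAIR1 replicate and bars the median. All pairs with induced vehicle lie above 0.6, and the pairs with uninduced libraries lie between 0.484 and 0.554.

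By the test, PAIR1 was above uninduced cells at 24 h in 1881 IDs (13.7%) and below them in 1968 (14.3%). Large differences were mostly deficits: 203 IDs were at least 2-fold lower and 63 at least 2-fold higher than without doxycycline. The median called difference was 0.29 on the log2 scale above and -0.32 below. These values are with TMM. With upper-quartile scaling 2096 IDs were called higher and 1790 lower, so the balance of calls depended on the scaling. Fitting only these 6 libraries gave 2765 calls in place of 3849, and leaving out the 6 libraries that stand apart gave 2943.

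The direct test against KIRA9 gave smaller differences than the test against vehicle. PAIR1 exceeded KIRA9 at 24 h in 825 IDs (6.0%) and was exceeded by it in 1418 (10.3%). Of these, 28 were at least 2-fold higher and 67 at least 2-fold lower, and the 10th and 90th percentiles over all tested IDs were -0.32 and 0.26. The share of calls that were higher was 36.8%, and with upper-quartile scaling it was 55.3% of 2629, and the lower calls were in excess with TMM and with RLE (38.3% higher). At 1.5-fold or more 299 IDs were lower and 66 higher. Without the 6 libraries that stand apart 1741 IDs were called in place of 2243. The doses of both compounds are not in the labels, so these values compare the treatments as applied.

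The IDs that induction lowered first were still low with PAIR1 at 24 h. At 4 h induction lowered 36 IDs (0.262% of those tested) and raised 5 (0.0363%) relative to uninduced cells. None of the 4 h libraries enters a 24 h contrast, so these sets were chosen on other samples. Over the 36 lowered IDs the mean level at 24 h was 6.25 to 6.32 log2 CPM in uninduced libraries, 4.44 to 4.48 with vehicle, 4.83 to 4.87 with PAIR1 and 5.60 to 5.63 with KIRA9. PAIR1 thus lay above vehicle by less than it lay below KIRA9, and no groups overlapped.

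ID by ID, 27 of the 36 (75%) were called higher with PAIR1 than with vehicle, beside 30.0% of all IDs, and 2 were called lower. The median rise was 0.35 on the log2 scale, with individual values from -0.24 to 1.19. Against uninduced cells 35 of the 36 (97.2%) were called lower with PAIR1, beside 14.3% of all IDs, with a median of -1.39, or 2.62-fold, and 29 were at least 2-fold lower. Against KIRA9 34 of the 36 (94.4%) were called lower, beside 10.3% of all IDs, with a median of -0.79. The medians over all tested IDs were -0.001 against uninduced cells and 0.008 against KIRA9. Without the 6 libraries that stand apart the set held 31 IDs, of which 29 were lower than in uninduced cells, 28 lower than with KIRA9 and 18 higher than with vehicle. In cells given the compound for 4 h the same 36 IDs had a mean of 6.17 to 6.23 log2 CPM with PAIR1, 5.75 to 5.82 with vehicle and 6.24 to 6.27 without induction. PAIR1 took no part in their choice, but the IDs were chosen for being low with vehicle at 4 h, which widens the gap. The 4 h levels are therefore a description only.

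**Figure D4:**
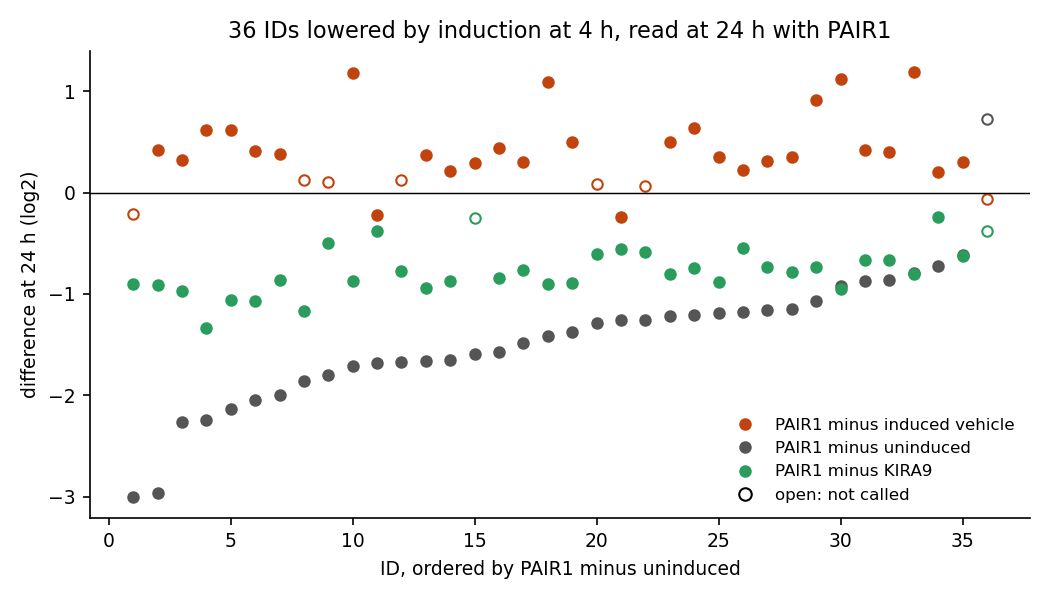
The 36 IDs lowered by induction at 4 h, read at 24 h: log2 difference of PAIR1 from induced vehicle (red), from uninduced (grey) and from KIRA9 cells (green), with IDs ordered by the difference from uninduced; open points were not called. All 36 lie below KIRA9, 35 are called below uninduced cells and 27 are called above vehicle.

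The difference between PAIR1 and vehicle was larger at 24 h than at 4 h: the median absolute log2 change over all tested IDs was 0.29 and 0.08. This order rests on the times in the titles and turns round with those of the conflicting characteristic, where 4646 IDs were called at 24 h and 4494 were raised and 4239 lowered at 4 h. At 4 h PAIR1 raised 318 IDs (2.31%) and lowered 122 (0.887%) relative to vehicle, most by little: 12 of the 318 and 1 of the 122 were changed at least 2-fold. Both counts fell whichever 1 of the 6 PAIR1 and vehicle libraries at 4 h was left out, and a test with fewer libraries calls fewer IDs. Then 181 to 224 IDs were raised and 60 to 81 lowered. The fewest were raised without PAIR1 replicate 3 (181) and the fewest lowered without PAIR1 replicate 2 (60). With 1 library left out, the share of the raised IDs that were also higher at 24 h was 66.5 to 70.4%. That of the lowered IDs also lower was 55.6 to 65.0%. Read at 24 h, in other libraries, 215 of the 318 (67.6%) were called higher with PAIR1 than with vehicle and 40 (12.6%) lower, where 30.0% and 24.9% of all IDs were. Their median change at 24 h was 0.46, and 65 were at least 2-fold higher. Of the 122 lowered at 4 h, 73 (59.8%) were called lower at 24 h and 24 (19.7%) higher, with a median of -0.19. Without the 6 libraries that stand apart, these counts were 123 of 201 raised and 25 of 45 lowered IDs. The mean of the raised set lay near the 4th of the 5 classes by level, and that of the lowered set near the border of the 4th and 5th. In these classes 38.2 and 44.9% of IDs were called higher with PAIR1 than with vehicle at 24 h, and 32.0 and 32.1% lower.

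The IDs changed by PAIR1 at 4 h differed in part from uninduced cells and from KIRA9 at 24 h. They were chosen against the same vehicle libraries at 4 h as the 36 IDs lowered by induction. The sets can hold the same IDs and are not separate observations. Of the 318 raised early, 114 (35.8%) were above and 122 (38.4%) below uninduced cells with PAIR1 at 24 h, beside 13.7% and 14.3% of all IDs. Against KIRA9 161 (50.6%) were below, beside 10.3% of all IDs, while the 17 (5.35%) above were near the 6.0% of all IDs. Of the 122 lowered early, 56 (45.9%) were below uninduced cells, beside 14.3% of all IDs, and the 15 (12.3%) above were near the 13.7% of all. Against KIRA9 41 (33.6%) were above, beside 6.0% of all IDs, and the 9 (7.38%) below were less frequent than the 10.3% of all. The shares of all IDs are not matched for level. The mean of the raised set lay near the 4th of the 5 classes by level, and that of the lowered set near the border of the 4th and 5th. In these 2 classes calls were more frequent. There 7.16 and 13.3% of IDs were above KIRA9 and 14.5 and 19.6% below it. At 24 h the 318 IDs had a mean of 5.21 log2 CPM in each vehicle library, 5.68 to 5.69 with PAIR1, 5.90 to 5.93 in uninduced and 6.01 to 6.02 in KIRA9 libraries. The mean of PAIR1 lay below that of uninduced cells, while the median difference was 0.03, with 166 IDs positive and 152 negative, and a 2-fold deficit was present in 63 IDs and a 2-fold excess in 3. At 4 h the means were 6.19 to 6.21 with PAIR1, 5.84 with vehicle and 5.94 to 5.97 in uninduced cells; the PAIR1 and vehicle levels chose the IDs, so the 4 h levels are a description only.

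**Figure D5:**
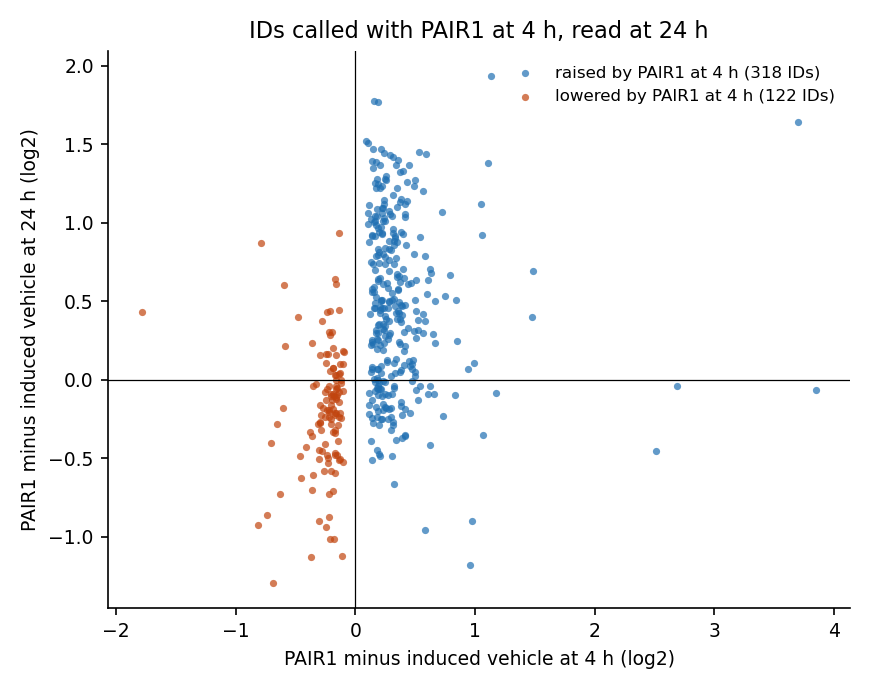
Log2 difference between PAIR1 and vehicle at 4 h (horizontal axis) and at 24 h (vertical axis, other libraries) for the 318 IDs raised (blue) and 122 lowered (red) by PAIR1 at 4 h. Most blue points lie above 0 at 24 h, 40 of the 318 IDs being called lower there, and most red points lie below 0.

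The change with time was tested by the interaction of compound and time. The effect of PAIR1 was more positive at 24 h than at 4 h in 3428 IDs (24.9%) and more negative in 2343 (17.0%), of which 554 and 155 differed at least 2-fold. With upper-quartile scaling 47.2% of 6152 calls were positive in place of 59.4% of 5771, and without the 6 libraries that stand apart there were 4205 calls.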

How the data were processed

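Poly(A) RNA of INS1 cells was sequenced from NEBNext Ultra II libraries, per the labels' protocols. The authors deposited raw read counts per Ensembl gene ID, without normalization. Per the submitters' processing notes HISAT2 and HTSeq were used, with no version. Build, annotation release and strand setting are not given in the sources used here; reads of overlapping, antisense or closely similar genes could be mixed. Columns were matched to samples through column names and titles.

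From these counts, filterByExpr (minimum count 10, 8 groups) kept 13760 of 26689 IDs, with at least 99.94% of each library's counts. One edgeR 4.0.16 quasi-likelihood model (R 4.3.3, TMM, a mean per group, no block) covered all 24 libraries. Benjamini-Hochberg adjustment ran over the 13760 IDs within a contrast, with calls at an adjusted p below 0.05. Every adjusted p comes from it unless another test is named. Levels are TMM-scaled CPM, log2 levels use a prior count of 2, standard errors (SE) are the log2 change divided by the root of F, and 95% intervals follow from them. A count of 0 allows up to 3 counts, 0.126 to 0.238 CPM per library, counting error only. The procedure was tested on simulated counts in which few IDs changed, at random in either direction. That test cannot tell how the scaling behaves when as many IDs change as were called here.

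Printed IDs are the 2 per direction with the largest called change, at least 5 CPM in the higher group, no overlap of groups and at most a 4-fold spread within each; its condition on symbols, the genes to be named in any case and the 26 gene lists and 9 marker lists could not be applied without names. The comparison, lists and sets were chosen with earlier results of these data known. Nothing in the labels says that replicates came from separate cultures, so p-values measure the spread between these samples, which may be technical. All replicate pairs differed by more than sampling noise (chi-square per degree of freedom 3.63 to 19.5). DESeq2 1.42.0, other scalings, filters and thresholds, a replicate block, the other time label and libraries left out were alternatives.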

Additional observations from a re-analysis of the deposited data

Results flagged for a closer look

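The effect of PAIR1 against vehicle differed between 24 h and 4 h by the interaction term, which is why these results stand out. It did so in 5771 IDs. Among the printed IDs the interaction was 2.13 ± 0.09 (SE, log2) for ENSRNOG00000001806 (adjusted p = 1.7e-14), 1.89 ± 0.66 for ENSRNOG00000015818 (adjusted p = 0.025), -3.00 ± 0.61 for ENSRNOG00000019660 (adjusted p = 0.00032) and -2.50 ± 0.34 for ENSRNOG00000042988 (adjusted p = 3e-06), all from edgeR's quasi-likelihood test. These IDs were picked for a large change at 24 h, which favours a large interaction. At 4 h none of the 4 was called for PAIR1, with log2 changes of 0.07, 0.59, 0.14 and 0.18 in the same order. Groups of 3 are too small to single out one library within a group by the gap to its neighbours.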

How the results depend on the processing

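Of 223 alternative values for counts and shares, 204 lay within 1.5 times the reported one. With the replicate number as a block within each time, 7563 IDs were called for PAIR1 against vehicle and no other count left that range. Same-numbered PAIR1 and vehicle libraries correlated in their deviations at 0.21, -0.15 and 0.19. PAIR1 replicate 1 correlated at 0.21, 0.18 and -0.35 with vehicle replicates 1, 2 and 3, of which 1 and 2 stand apart together with it. These values therefore cannot show whether same-numbered libraries were paired. At an adjusted p below 0.01, 1426 IDs differed between PAIR1 and KIRA9. Requiring a 2-fold change gave 910 calls against vehicle (690 higher, 220 lower), 266 against uninduced cells, 95 against KIRA9 and 709 for the interaction; the sets chosen at 4 h then shrank to 12 raised IDs, of which 25% were higher at 24 h, and to 1 lowered ID for PAIR1 and 1 for induction, of which 0% kept the reported call. These smaller counts follow from the added condition. With times from the conflicting characteristic, PAIR1 against vehicle gave 4646 calls (2272 higher); the shares were 34.2% for lower than uninduced, 29.4% for lower than KIRA9 and 7.42% for higher than vehicle among what were then 4449 IDs lowered by induction at 4 h, and 8.26% and 4.15% among 4494 IDs raised and 4239 lowered by PAIR1 at 4 h. ENSRNOG00000001806 then turned to -0.48 on the log2 scale and was called. ENSRNOG00000019660, at 1.03 (adjusted p = 0.08 in edgeR's quasi-likelihood test), was no longer called. Neither was ENSRNOG00000042988, at 0.01 (adjusted p = 0.98), nor ENSRNOG00000015818, at 0.70. DESeq2 called 7149 IDs. The set lowered by induction at 4 h held 23 IDs when the fit was limited to the groups compared and 60 with DESeq2, and the share lower than uninduced was 87.0% and 93.3%. With 1 PAIR1 or vehicle library left out the calls against vehicle were 7010 to 7079. IDs below a few CPM are limited by depth.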

Other observations

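The 5 IDs raised by induction at 4 h are too few for a statement about a class, and are given as values. At 24 h their mean level was 4.11 to 4.21 log2 CPM in uninduced, 5.88 to 5.96 in vehicle, 5.55 to 5.70 in PAIR1 and 5.27 to 5.38 in KIRA9 libraries. With PAIR1, 4 of the 5 were called above uninduced cells, beside 13.7% of all IDs, and 0 below (median log2 difference 1.42), 3 were called below vehicle, beside 24.9% of all, and 1 above, beside 30.0% (median -0.39), and 3 were called above KIRA9, beside 6.0% of all (median 0.35), by edgeR's quasi-likelihood test with the adjustment over all IDs.

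Differences between PAIR1 and KIRA9 at 24 h were called more often among abundant IDs. Whether this follows from their larger number of reads was not tested. In the highest of 5 classes by level PAIR1 was above KIRA9 in 13.3% of IDs and below it in 19.6%, and in the lowest class in 1.64% and 1.42%.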
